A study of Mus musculus with 6 samples.

Results

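The cytosolic ribosomal protein genes encode the proteins of the ribosome that works in the cytoplasm. They were taken from the deposited gene table by name: protein-coding rows named Rpl, Rps or Rplp with a number and an optional a, x or l suffix, together with Rpsa and Fau. The rule found 83 genes among 31529 rows, made up of 32 genes of the small subunit, 43 of the large subunit, 3 of the P stalk and 5 paralogs of other members. Another 5 rows matched by name but were not listed as protein coding. Of the 83 genes, 82 passed the filter on low counts and were tested, and Rpl39l did not. The study sequenced polyadenylated RNA from whole hearts of wild-type mice of the ICR stock, an outbred line, at 2 stages, embryonic days 16.5 (E16.5) and 18.5 (E18.5), each represented by 3 libraries. No treatment or induced mutation is given for either stage. The series' text calls the 3 libraries of a stage biological replicates, and does not say whether a library came from 1 heart or several, or from which litter. The p-values measure only the spread between these libraries, and litters, if shared within a stage, were not accounted for.

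Each ribosome has a small subunit, which reads the messenger RNA, and a large subunit, which joins amino acids into protein. Its proteins are needed in nearly equal numbers, and their messenger RNAs are among the most abundant in growing cells. Most begin with a run of pyrimidines at the capped end, the 5' terminal oligopyrimidine (TOP) sequence, through which mTOR signalling controls their translation. Because these RNAs are short and abundant, mouse chromosomes hold many processed copies of them, made by reverse transcription, and reads from gene and copy are hard to tell apart.

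The 6 libraries held 61443414 to 77237333 estimated counts, of which genes of the mitochondrial chromosome took 19.9% to 41.4%. Cardiomyocyte markers were present throughout, with all 10 in the table, none at 0, and a sum of 28512 to 41385 CPM. In bulk tissue, fewer cells of a type and less RNA per cell cannot be told apart. CPM are counts-per-million values, here estimated counts over library totals scaled with TMM factors. FPKM are the authors' fragment values scaled by transcript length and library size, and are used to compare genes with each other.

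As annotated, members spanned a wide range of FPKM, with a median of 124 per gene. Rps15, which lies near the decoding centre of the small subunit, was highest at 590 FPKM. Rpl36, a large subunit protein, followed at 573 FPKM and Rpl19 at 557 FPKM. At the other end, Rpl39l, which was not tested, had 0.0527 FPKM. The lowest of the tested members seemed nearly silent: Rpl3l at 0.594 FPKM, Rpl21 at 1.80 FPKM and Rpl29 at 3.61 FPKM. Of these 3, Rpl3l is a tissue-restricted paralog. Rpl21 and Rpl29 are large subunit proteins, and their low rows were not low once the copies in the table were counted with them. The FPKM of Rpl21 summed with those of its 55 copies came to 1084, the highest of any member so summed, and those of Rpl29 and its 27 copies to 598. Such sums depend on the length of each row. In CPM, which are not scaled by length, the Rpl21 family had 492 to 684, against 671 to 1177 for the Rpsa family.

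Copies were defined as other rows whose transcript matched a member's coding sequence at 95% identity or more over at least 50% of its length. There were 548 such copies for 77 members, with a median of 5 a member, and 26 were identical over the whole coding sequence. The 6 members without a copy included Rpl22, Rpl39l, Rpl3l, Rpl8 and Rps27l. Of the copies, 218 averaged more than 100 counts a library and 79 more than 1000, and 11 were themselves annotated as protein coding. Together the copies took 21.9% to 26.1% of the counts of members and copies combined. In 39 members the member's own row held over 90% of the counts of its family, and in 11 it held less than 50%. Those 11 were Rpl21, Rpl29, Rps2, Rpl35a, Rpl34, Rps18, Rpl17, Rpl26, Rpl30, Rpl7a and Rps12. For Rpl21 the counts sat mostly in 3 copies at nearly equal levels. Gm10163 had 170, 154 and 163 CPM at E16.5 and 167, 137 and 123 CPM at E18.5. Gm10240 and Gm13370 stayed within 10 CPM of it in each library, while the Rpl21 row itself had 5.74 to 7.73 CPM.

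The share of counts in the member's own row also differed between libraries, by more than 20 percentage points in 9 members: Rpl26, Rps3a1, Rpl30, Rpsa, Rps27, Rps12, Rps19, Rpl7a and Rps7. A single row of such a gene does not hold its counts in the same proportion in every library. Each comparison is therefore given for the rows as deposited and with every member summed with its copies.

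Between E16.5 and E18.5, Rpl26 was the only member whose row passed the test, and no member passed once copies were summed. Over the rows as deposited, 1 of 82 members was called higher at E18.5 and 0 were called lower (edgeR quasi-likelihood, Benjamini-Hochberg adjusted p under 0.05 over 19959 genes). The share of all genes called was 0.0952% higher and 0.0551% of all genes lower. At an unadjusted p under 0.05, 1 member was higher and 4 were lower (Rpl14, Rpl36a, Rpl41 and Rps19), against 4.83% and 4.7% of all genes. The median log2 change of members was -0.08, with 34 higher and 48 lower, beside a median of -0.002 over all genes tested. DESeq2 also called Rpl26 alone, against 1.22% of all genes higher and 0.802% lower. So did limma on log2(FPKM + 1), against 0.0251% in each direction. On the FPKM scale the median of members was 0.06, beside 0.05 over all genes (limma on log2(FPKM + 1)), so its sign turned with the scale.

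With copies summed, 0 of 82 members were called by edgeR, against 0.0717% of all genes called higher and 0.0512% called lower. At an unadjusted p under 0.05, 0 were higher and 2 were lower, Rps18 and Rpl36a, against 4.85% and 4.76% of all genes. DESeq2 called 1 member on the summed table, Rps18, as lower, a share near the background of 0.901% of all genes called lower by it (1.24% higher). On log2(FPKM + 1), limma called 0, against 0.0205% of all genes higher and 0.0256% lower. The median log2 change was -0.09, with 28 members higher and 54 lower. All but 2 members, Rpl3l and Rps18, lay within 0.5 of 0 on the log2 scale. Summing moved the change by over 0.2 in 11 members, Rpl21, Rpl26, Rpl29, Rpl30, Rpl7a, Rps18, Rps19, Rps2, Rps27, Rps3a1 and Rpsa, and turned its sign in 10. The median shift was 0.02.

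**Figure D1:**
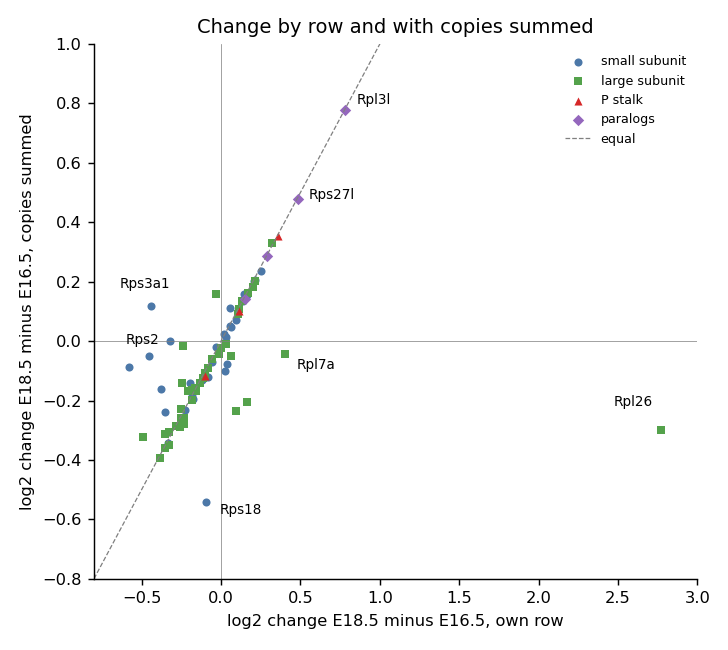
Log2 change E18.5 minus E16.5 of each of 82 tested members, from its own row (horizontal axis) and with its near-identical copies summed (vertical axis), with the dashed line where both are equal. Most points lie on the line, Rpl26 moves from 2.77 to -0.30, and Rps18 from -0.09 to -0.54.

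Rpl26 (ENSMUSG00000060938, GRCm38 chr11:68901583-68906989, plus strand), a large subunit protein near the exit of the peptide tunnel, showed 38.8, 33.1 and 33.7 CPM at E16.5 and 265, 241 and 215 CPM at E18.5. Every E18.5 library lay above every E16.5 library, with a log2 change of 2.77 ± 0.15 (SE) and an adjusted p of 0.000847 in edgeR. Its processed copy Gm15772 (ENSMUSG00000062353, chr5:3236431-3236868, plus strand) showed the reverse, 563, 528 and 543 CPM at E16.5 and 270, 227 and 213 CPM at E18.5. The log2 change of Gm15772 was -1.20 ± 0.15, with an edgeR adjusted p of 0.0331. That call was lost when any library but E16.5 replicate 2 was left out (adjusted p from 0.0747 to 0.279) and in limma on log2(FPKM + 1) (0.342). The counts of both rows together were 602, 561 and 577 CPM at E16.5 and 535, 467 and 428 CPM at E18.5. Stages did not overlap in this sum, which was lower at E18.5, with a log2 change of -0.28 ± 0.14 and an edgeR adjusted p of 0.570. Rpl26 took 6.44%, 5.90% and 5.84% of the sum at E16.5, against 49.5%, 51.5% and 50.2% at E18.5. The shares were tight within each stage and far apart between stages. On summed FPKM the change was -0.74 (limma on log2(FPKM + 1), adjusted p = 0.606), since the authors' FPKM give a read on the short copy more weight than one on the longer gene. With all 6 of its copies the Rpl26 family gave -0.30 ± 0.15 (edgeR adjusted p = 0.554).

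Over the 435 bases of the Rpl26 coding sequence without its stop codon, the gene and the copy differ at 2 positions, C177T and T288C, written as the base of Rpl26, its position from the A of the start codon, and the base of Gm15772. Both windows are shown because a read from a spliced Rpl26 RNA that stays within the coding sequence and crosses neither position matches both rows. Capitals mark the differing base within 30 bases, at 162 to 191 and at 273 to 302 of the coding sequence, from the GENCODE release M21 transcripts (GRCm38).
Rpl26 around 177: agttcaggttgttcgCggacactacaaagg
Gm15772 around 177: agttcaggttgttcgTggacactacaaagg
Rpl26 around 288: tggcacaaccgtccaTgtgggcatccaccc
Gm15772 around 288: tggcacaaccgtccaCgtgggcatccaccc
Whether both stages were quantified together was not given in the sources used here, and the part of read placement in the change of Rpl26 was not tested beyond these sums.

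Rps3a1, a small subunit protein, had a similar division that followed single libraries rather than stages. Its row held 135, 558 and 267 CPM at E16.5 and 189, 272 and 248 CPM at E18.5. Its copy Rps3a3, with 8 mismatches to it, held 96.2, 2.18 and 1.56 CPM at E16.5 and 107, 112 and 110 CPM at E18.5. E16.5 replicate 1 thus resembled the E18.5 libraries in the copy, and the other E16.5 libraries nearly lacked it. The Rps3a1 row took 52.1%, 97.4% and 96.0% of the counts of its family at E16.5, against 54.9%, 60.2% and 59.8% at E18.5. From the row alone the log2 change was -0.44 ± 0.43 (edgeR adjusted p = 0.764), and with copies summed it was 0.12 ± 0.30 (edgeR adjusted p = 0.912). The summed values, 260, 573 and 279 CPM at E16.5 and 344, 450 and 414 CPM at E18.5, overlapped between stages. E16.5 replicate 2 was highest in the row and in the sum.

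**Figure D2:**
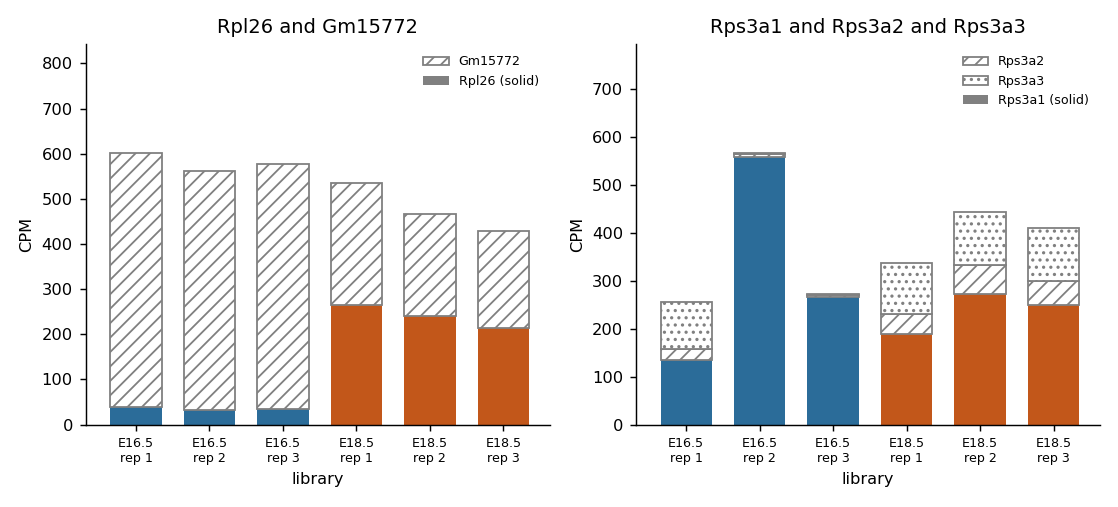
CPM by library (bars from 0) of Rpl26 with its copy Gm15772 (left) and of Rps3a1 with its copies Rps3a2 and Rps3a3 (right), members solid and copies hatched or dotted, E16.5 in blue and E18.5 in orange. The Rpl26 part rises from 33.1 to 38.8 CPM at E16.5 to 215 to 265 CPM at E18.5 while the stacks differ less, and the Rps3a3 part is at 2.18 and 1.56 CPM in E16.5 replicates 2 and 3 only.

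Rps18, itself a small subunit protein, gave the lowest p of the summed families. With its 5 copies it stood at 525, 433 and 470 CPM at E16.5 and at 271, 366 and 345 CPM at E18.5. The stages did not overlap, with a log2 change of -0.54 ± 0.16 and an edgeR adjusted p of 0.348. DESeq2 gave -0.55 with an adjusted p of 0.0470, 1 of 419 genes that it called on the summed table. In E18.5 replicate 1, which was lowest, the copy Rps18-ps6 was listed at 0, against 145 to 191 CPM at E16.5 and 148 and 141 CPM in the other E18.5 libraries. Without that library the edgeR change was -0.43 (adjusted p = 0.498). The Rps18 row itself held only 13.1% to 23.4% of the family counts and gave -0.09. Vps52, on the opposite strand over Rps18, held 167% of the counts of the Rps18 row, and the use of strand in counting was not given in the sources used here.

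Rpsa, a small subunit protein that is also known as a laminin receptor, differed in its row by 1 library. The row held 445, 697 and 497 CPM at E16.5 and 499, 553 and 263 CPM at E18.5. In E18.5 replicate 3 the row held 28.3% of its family's counts, against 59.3% to 66.5% in the others, and the copy Rpsa-ps10 held 633 CPM, against 209 to 448 CPM. The row gave a log2 change of -0.32 ± 0.29 (edgeR adjusted p = 0.746) and the sum with 11 copies one of -0.001 (adjusted p = 0.999). Rps2, a small subunit protein beside the messenger RNA entry, held 3.89% of its family's counts in its own row, the rest lying in 23 copies. Its row gave the lowest change of any member, -0.58 ± 0.30 (edgeR adjusted p = 0.569), from 28.1, 21.2 and 32.0 CPM to 10.3, 23.4 and 20.7 CPM. The Rps2 sum gave -0.09 ± 0.19 (adjusted p = 0.899). Rpl7a, a large subunit protein, went the other way, from 0.40 ± 0.30 (edgeR adjusted p = 0.693) in its row to -0.04 (adjusted p = 0.948) with its 33 copies.

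Small subunit genes had a median log2 change of -0.04 over 32 members as deposited and -0.03 with copies summed, and none was called by edgeR in either. Without E16.5 replicate 2 the median was 0.18. Rps6, the protein phosphorylated by S6 kinase after mTOR activation, stood at 473, 755 and 522 CPM at E16.5 and at 527, 574 and 550 CPM at E18.5. Its stages overlapped, with a log2 change of -0.08 ± 0.19 (edgeR adjusted p = 0.904). Rps19, which is mutated in Diamond-Blackfan anaemia, had 95.3, 159 and 142 CPM at E16.5 and 106, 96.8 and 86.4 CPM at E18.5. The Rps19 row gave -0.46 ± 0.20 (edgeR adjusted p = 0.523) and its sum with 6 copies gave -0.05 (adjusted p = 0.925). Fau, whose product is a ubiquitin-like fusion that releases a small subunit protein, had 109, 155 and 109 CPM at E16.5 and 159, 139 and 135 CPM at E18.5. Fau gave 0.22 ± 0.17 (edgeR adjusted p = 0.711), with overlapping stages. Rps15, the member of highest FPKM, gave -0.18 ± 0.14 (adjusted p = 0.707) from 404 to 450 CPM at E16.5 and 338 to 412 CPM at E18.5.

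Large subunit genes had a median log2 change of -0.13 over 43 members, 13 higher and 30 lower. With copies summed the median was -0.16, with 8 higher and 35 lower, and 0 were called in edgeR (1 had an unadjusted p under 0.05). Without E16.5 replicate 2 the median of the rows was 0.008, with 23 higher and 20 lower. Rpl41, the shortest ribosomal protein, had 145, 163 and 169 CPM at E16.5 and 131, 116 and 93.2 CPM at E18.5. Stages did not overlap in Rpl41, and it gave -0.49 ± 0.16 (edgeR adjusted p = 0.383), or -0.32 ± 0.15 with copies summed (adjusted p = 0.543). Rpl36 had 295, 206 and 324 CPM at E16.5 and 269, 172 and 190 CPM at E18.5, overlapping, with -0.39 ± 0.23 (edgeR adjusted p = 0.619). Rpl22, which has no copy and binds RNA outside the ribosome as well, had 149, 161 and 155 CPM at E16.5 and 144, 120 and 119 CPM at E18.5. The Rpl22 stages did not overlap, with -0.28 ± 0.13 (edgeR adjusted p = 0.551). Rpl5 and Rpl11 bind 5S RNA and, when free, the p53 regulator Mdm2. Rpl5 had 295, 548 and 306 CPM at E16.5 and 321, 375 and 316 CPM at E18.5. Rpl11 had 462, 591 and 564 CPM at E16.5 and 513, 490 and 477 CPM at E18.5. In both genes E16.5 replicate 2 was highest and the stages overlapped, with -0.18 ± 0.25 (edgeR adjusted p = 0.833) for Rpl5 and -0.13 ± 0.15 (adjusted p = 0.798) for Rpl11. Rpl9 had 89.1, 120 and 88.8 CPM at E16.5 and 127, 120 and 124 CPM at E18.5, with 0.32 ± 0.15 (edgeR adjusted p = 0.550).

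Members whose stages did not overlap were no more frequent than such genes in the whole table when rows were read as deposited. There 5 members, or 6.1%, had every E16.5 library above every E18.5 library, Rpl14, Rpl22, Rpl28, Rpl36a and Rpl41, against 8.02% of all genes. The reverse held for 3, or 3.66%, Rpl26, Rpl3l and Rpl9, against 8.45% of all genes. With copies summed the counts were 10 (12.2%) and 2 (2.44%), against 8.14% and 8.42%.

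The P stalk, which recruits elongation factors to the large subunit, is built from Rplp0, Rplp1 and Rplp2. Rplp0 had 201, 565 and 268 CPM at E16.5 and 271, 383 and 311 CPM at E18.5. Rplp1 had 131, 368 and 203 CPM at E16.5 and 230, 278 and 250 CPM at E18.5. In both, E16.5 replicate 2 was the highest of all libraries and E16.5 replicate 1 the lowest. Rplp2 had 109, 149 and 117 CPM at E16.5 and 181, 157 and 143 CPM at E18.5. The log2 changes were -0.10 ± 0.35 for Rplp0, 0.11 ± 0.33 for Rplp1 and 0.36 ± 0.17 for Rplp2, with edgeR adjusted p from 0.538 to 0.940. Without E16.5 replicate 2 they were 0.46, 0.60 and 0.51, the lowest adjusted p being 0.0810.

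The summed level of the ribosomal protein genes spread more widely among the E16.5 libraries than the stage means lay apart. They took 2.59%, 4.08% and 3.05% of the counts outside the mitochondrial chromosome at E16.5, against 3.07%, 3.13% and 2.94% at E18.5. The means were 3.24% ± 0.763 (SD, n = 3) and 3.05% ± 0.0944 (SD, n = 3), and all 3 E18.5 values lay inside the E16.5 range. With copies added the shares were 3.51%, 5.22% and 4.0% at E16.5, against 3.95%, 4.03% and 3.84% at E18.5. Each member's deviation was its log2 CPM, with copies summed, minus its own mean over the 6 libraries. The median deviation was, by replicate number, -0.20, 0.21 and -0.0008 at E16.5, against 0.06, -0.01 and -0.09 at E18.5. E16.5 replicate 2 was the highest library for 49 of 82 members and E16.5 replicate 1 the lowest for 45. The standard deviation between libraries was larger at E16.5 than at E18.5 in 58 of 82 members, with medians of 0.24 and 0.14 on the log2 scale. No share over all genes stands beside these counts of 49, 45 and 58, so they are not read as particular to the members. Leaving out E16.5 replicate 2 also moved the calls over all genes, from 30 to 371.

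**Figure D3:**
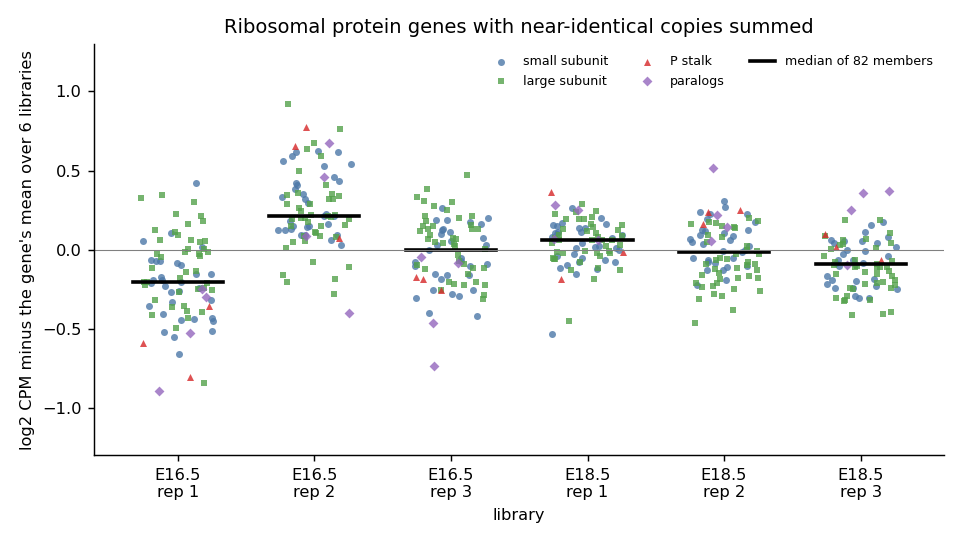
Deviation in log2 CPM (vertical axis) of the 82 tested members, copies summed, from each gene's mean over 6 libraries, by library (horizontal axis), with marker shape and colour for the group and a black bar for the median. The median is -0.20 in E16.5 replicate 1, 0.21 in E16.5 replicate 2 and within 0.1 of 0 in the other 4 libraries.

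The sign of the median turned when E16.5 replicate 2 was left out, as it also did on the FPKM scale with all 6 libraries kept. Without E16.5 replicate 1 the median log2 change of members was -0.19. Without E16.5 replicate 2 it was 0.10, and 16 members turned from lower to higher and 0 the other way. The call of Rpl26 held, and 2 paralogs were also called higher at E18.5, Rpl7l1 (0.69, edgeR adjusted p = 0.0478) and Rps27l (1.20, adjusted p = 0.0380), against 1.2% of all genes called higher and 0.579% of them lower. At an unadjusted p under 0.05, 24 members were higher and 8 lower, against 13.1% and 10.3% of all genes. With copies summed and without that library, the median was 0.06, and Rpl7l1 and Rps27l were the 2 members called, both higher, against 1.42% of all genes called higher and 0.728% lower. Of these summed members, 19 were higher and 8 lower at an unadjusted p of less than 0.05, against 13% and 10.4% of all genes.

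Other features also differed between these libraries. The mitochondrial share was 41.4%, 19.9% and 35.0% at E16.5, against 33.5%, 26.7% and 25.2% at E18.5. E16.5 replicate 2 had the lowest share and the highest members, and E16.5 replicate 1 the reverse. Among the E18.5 libraries the order was the other way, the lowest share going with the lowest median deviation of members. Erythroid markers, of which 9 of 10 were in the table and none at 0, summed to 9449, 23806 and 15521 CPM at E16.5 and to 8995, 16708 and 21111 CPM at E18.5. They too were highest in E16.5 replicate 2, but their second highest library was E18.5 replicate 3, where the median deviation of members was -0.09. The sum of cardiomyocyte markers was lowest in E16.5 replicate 2, at 28512 CPM against 34127 to 41385 CPM in the others. By the median deviation of these 10 markers E16.5 replicate 3 was lowest, at -0.26 against -0.19 in E16.5 replicate 2. The markers thus did not share 1 order. Endothelial markers (648, 825 and 755 CPM) and fibroblast markers (2329, 3678 and 3269 CPM) had the order of the members at E16.5, and at E18.5 lay at 754 to 835 CPM and 3895 to 5097 CPM. Between stages, fibroblast, epicardial (113 to 135 CPM, then 185 to 240 CPM) and smooth muscle markers (812 to 817 CPM, then 1012 to 1110 CPM) were higher at E18.5 without overlap. Proliferation markers were lower there, at 1091 to 1445 CPM and then 917 to 997 CPM. Immune markers overlapped, at 56.0 to 82.2 CPM over all libraries. All 10 markers of each of these lists were in the table and none was at 0. The part of these features in the spread of ribosomal protein genes was not tested. With the mitochondrial share as a term in edgeR, Rpl26 remained the only member called on rows as deposited, against 0.646% of all genes called higher and 0.276% called lower. At an unadjusted p under 0.05 that fit had 4 members higher and 13 lower, against 8.4% and 6.26% of all genes, with a median of -0.10. With copies summed, the fit with this term called 0 members, beside 135 of 19539 genes higher and 60 lower. There 3 members were higher and 17 lower by the unadjusted p, beside 1632 and 1255 of the 19539 genes. Their median was -0.12.

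The paralogs replace or stand beside a core protein in some tissues, and all 4 that were tested had a higher value at E18.5, with a median log2 change of 0.39 and none called. Rpl3l, a striated muscle form of Rpl3 with no copy (chr17:24727820-24736143, plus strand), had 0.733, 0.653 and 0.932 CPM at E16.5 and 1.35, 1.18 and 1.46 CPM at E18.5. Its stages did not overlap, and its log2 change was 0.78 ± 0.36 (edgeR adjusted p = 0.542). Rpl3 itself stood at 123, 203 and 128 CPM at E16.5 and 132, 149 and 149 CPM at E18.5, with -0.08 ± 0.20. Rps27l, a p53-responsive relative of Rps27, had 7.96, 24.5 and 8.90 CPM at E16.5 and 16, 22.0 and 19.9 CPM at E18.5. E16.5 replicate 2 was the highest library for Rps27l and the other E16.5 libraries the lowest, with 0.48 ± 0.40 (edgeR adjusted p = 0.721). Rpl7l1, which takes part in ribosome assembly, had 17.2, 34.4 and 18 CPM at E16.5 and 26.1, 29.2 and 29.9 CPM at E18.5. In Rpl7l1 too E16.5 replicate 2 was highest and the other E16.5 libraries lowest, with 0.29 ± 0.26 (adjusted p = 0.744). Rpl22l1 had 27.8, 34.4 and 31.4 CPM at E16.5 and 39.9, 35.0 and 28.9 CPM at E18.5, overlapping, with 0.15 ± 0.16 (adjusted p = 0.781). Rpl39l, a form known from testis, was at 0 in 4 libraries and at 0.0986 and 0.180 CPM in E16.5 replicate 2 and E18.5 replicate 1.

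A paralog's share of the FPKM of paralog plus parent is free of the scaling of its library. Rpl3l made up 1.14%, 0.616% and 1.38% of its pair with Rpl3 at E16.5, against 1.94%, 1.51% and 1.85% at E18.5. Rpl22l1 made up 21.4%, 23.9% and 22.9% of its pair with Rpl22 at E16.5, against 28.8%, 29.9% and 26.2% at E18.5. Rpl7l1 made up 4.36%, 3.58% and 3.55% of its pair with Rpl7 at E16.5, against 5.18%, 4.76% and 5.41% at E18.5. In each of these pairs every E18.5 library lay above every E16.5 library. The differences in means were 0.722, 5.62 and 1.29 percentage points. The same order held for Rps4l, whose row is not listed as protein coding, in its pair with Rps4x, at 15.3% ± 1.17 (SD, n = 3) and 19.3% ± 1.83 (SD, n = 3). Each of these 4 gave p = 0.1 in an exact two-sided permutation test, the smallest that 3 libraries against 3 allow, or 0.15 adjusted over 6 pairs. Rps27l overlapped between stages, at 16.7%, 32.0% and 12.7% at E16.5, against 24.2%, 34.8% and 42.4% at E18.5 (exact p = 0.2, adjusted 0.24). The pair of Rpl39l with Rpl39 also overlapped (exact p = 1). When the parent's copies were added to the parent, the shares of Rpl3l (0.399% and 0.644%) and Rpl7l1 (3.47% and 4.82%) still did not overlap, while those of Rps4l and Rps27l did (exact p = 0.2 and 0.3).

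**Figure D4:**
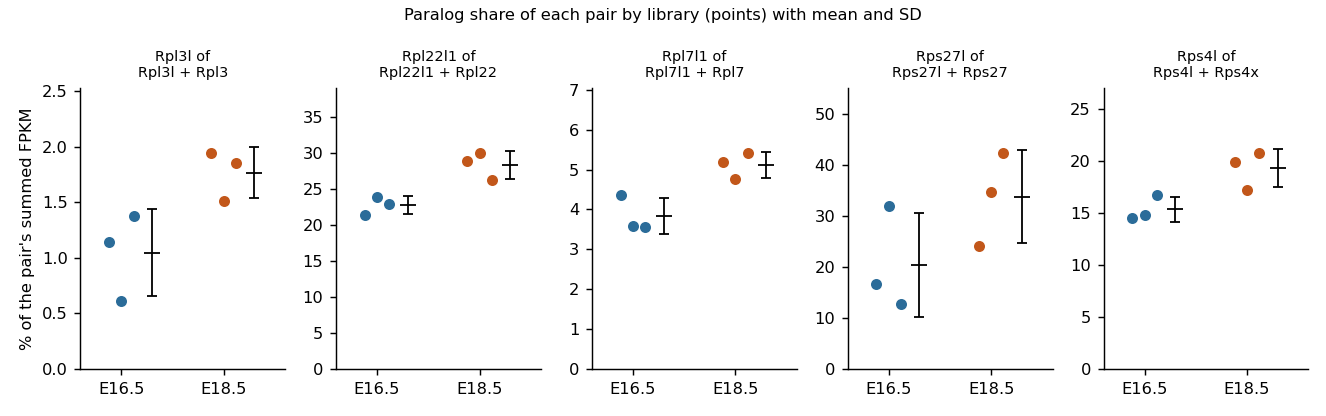
Share of each paralog in the summed FPKM of paralog and parent, in percent (vertical axes from 0, a scale for each pair), at E16.5 (blue) and E18.5 (orange), with a point for each library and the mean with SD beside. The points of Rpl3l, Rpl22l1, Rpl7l1 and Rps4l do not overlap between stages, and those of Rps27l do.

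Within each library, the deviation of members varied with the length of their coding sequence. Across the 82 tested members with copies summed, Pearson's r between the deviation and log2 coding length was, by replicate number, -0.32, 0.43 and -0.44 at E16.5, against -0.47, 0.30 and 0.52 at E18.5. On rows as deposited r was weaker, at -0.23, 0.27 and -0.29 at E16.5, against -0.27, 0.25 and 0.29 at E18.5. Because deviations are taken from each gene's own mean over the libraries, an r of 1 sign in some brings the other sign in others. These are correlations across genes that share their library, and genes are not independent replicates, so no test was made. Across 15191 other protein-coding genes r lay between -0.06 and 0.04, but there length was that of the longest whole transcript. Those genes were read from rows as deposited, so only the members' values on rows share that basis. The measure of length still differs, so the r of members and of other genes are not like for like. The longest 27 members, with coding sequences of 582 to 1257 bases, had median deviations of -0.35, 0.42 and -0.16 at E16.5, against -0.06, 0.09 and 0.0069 at E18.5. The shortest 27, of 75 to 399 bases, had -0.07, 0.12 and 0.13 at E16.5, against 0.13, -0.06 and -0.21 at E18.5. The rise in E16.5 replicate 2 was thus larger in long members than in short ones, and E18.5 replicate 3 was low mainly in short ones. The median change with copies summed was -0.05 in the longest and -0.12 in the shortest. For GC content of the members' coding sequence, r lay between -0.12 and 0.14 with copies summed and between -0.16 and 0.20 on rows as deposited. Across the other protein-coding genes, r with GC content of the longest whole transcript lay between -0.16 and 0.15 on rows as deposited.

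**Figure D5:**
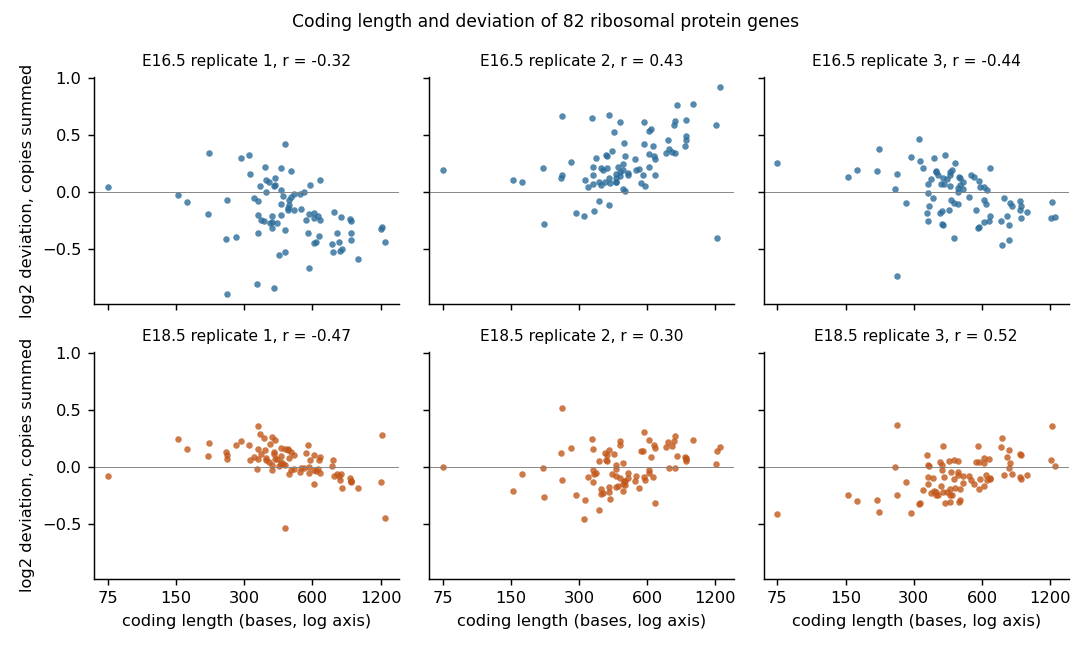
Deviation of each of 82 members in log2 CPM, copies summed (vertical axis), against coding length in bases (log horizontal axis), in a panel for each library with Pearson's r across genes. Points slope up in E16.5 replicate 2 and in E18.5 replicates 2 and 3, and down in the other 3 libraries. Each deviation is from the gene's own mean over these libraries, so a slope in any of them brings opposite slopes in others.

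The TOP sequence was looked for as letters at the start sites that RefSeq annotates on GRCm38.p6: a C followed directly by at least 4 letters that are C or T, beginning within 5 bases of the start, on the gene's own strand. Of the members, 63 were matched by symbol, and 30 of them, 47.6% (exact 95% interval 34.9% to 60.6%), held these letters at any listed start. Of all 27025 genes in the table of start regions, 5718 did, or 21.2%. Within 10 bases of the start the shares were 61.9% and 34.4%. Those not matched included Rpl17, Rpl21, Rpl23a, Rpl29, Rpl3, Rpl30, Rpl32, Rpl36, Rpl7, Rpl8, Rplp1, Rps14, Rps20, Rps27a and Rps29. The starts below show the pattern in members of both subunits, and Rpl26, where it was not found at the RefSeq start, for contrast. Each runs from 10 bases before the annotated start to 19 bases after it, with the letters found, from the annotated start onward, in capitals.
Rps6: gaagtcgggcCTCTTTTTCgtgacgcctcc
Rps10: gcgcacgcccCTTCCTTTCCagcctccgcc
Rps15a: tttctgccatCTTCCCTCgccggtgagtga
Fau: gcccccacttCTTCCTCTTTCTTgactcca
Rpl15: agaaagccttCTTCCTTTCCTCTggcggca
Rpl35: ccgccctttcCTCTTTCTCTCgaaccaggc
Rpl38: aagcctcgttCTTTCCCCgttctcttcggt
Rpl26: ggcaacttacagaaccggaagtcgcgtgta
They lie at chr4:86857348-86857377 (minus), chr17:27635225-27635254 (minus), chr7:118116128-118116157 (minus), chr19:6057937-6057966 (plus), chr14:18270967-18270996 (minus), chr2:39005112-39005141 (minus), chr11:114668570-114668599 (plus) and chr11:68901556-68901585 (plus) in that order. In the first 7 the capitals begin at the annotated start, and the base before it, in lower case, is also C or T. The 30 tested members with the letters had a median log2 change of -0.07 with copies summed, and the 32 tested members without them one of -0.10. In E16.5 replicate 2 their median deviations were 0.15 and 0.28. A match of letters, or the lack of one, is a description and does not show where the RNA starts in these hearts. M21 starts Rpl26 at chr11:68901583, near the end of the window shown. The lack of the letters there thus does not show that Rpl26 RNA lacks them.

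Several member loci carry other genes. In 22 members the span held a gene for a small nucleolar RNA on either strand, 31 genes counted by a symbol beginning with Snora or Snord. Small nucleolar RNAs guide modification of ribosomal RNA and are cut from introns of their host. Genes on the opposite strand with over 25% of the member's counts overlapped 3 members: Rps18 (Vps52), Rps28 (Kank3, 86.2%) and Rpl32 (Cand2, 31.6%). Values of these members are uncertain where counting did not use strand.

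Other genes of the translation machinery were read from lists of related factors. None of the 6 lists had a gene called by edgeR over all genes. Counts by the unadjusted p are to be read against 4.83% of all genes higher and 4.7% lower. The elongation factors gave a median log2 change of 0.09 over 10 genes, 6 higher and 4 lower, and 1 of them higher and 0 lower by the unadjusted p. Eef1a1, which carries aminoacyl-tRNA to the ribosome, had 2496, 4537 and 2896 CPM at E16.5 and 2421, 2667 and 2358 CPM at E18.5. E16.5 replicate 2 was highest for Eef1a1 as for most members, with -0.42 ± 0.24 (edgeR adjusted p = 0.609). The initiation factors gave 0.12 over 39 genes, with 24 higher and 15 lower, of which 0 and 2 had an unadjusted p under 0.05. The other TOP transcripts, a group that includes Rack1, gave 0.09 over 17 genes, of which 1 higher and 0 lower passed that p. Rack1, a small subunit protein outside the naming rule, had 278, 456 and 346 CPM at E16.5 and 366, 360 and 360 CPM at E18.5. Its stages overlapped, with 0.008 ± 0.19 (edgeR adjusted p = 0.992).

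The genes that build ribosomes did not stand high in E16.5 replicate 2. The median deviation in that library was -0.08 over 63 assembly factors and -0.15 over 17 genes of RNA polymerase I transcription, against 0.48 over the elongation factors and 0.23 over the initiation factors. Assembly factors had a median log2 change of 0.002, with 33 higher and 30 lower, of which 4 and 1 had an unadjusted p under 0.05. Rrp12, needed for export of both subunits, had 7.80, 6.96 and 7.84 CPM at E16.5 and 12.2, 12.7 and 13.7 CPM at E18.5. The stages did not overlap in Rrp12, at 0.77 ± 0.15 with an edgeR adjusted p of 0.160, and DESeq2 called it (adjusted p = 0.00182), as it did 1.22% of all genes higher. Nolc1, a nucleolar chaperone, had 42.3, 39.9 and 39.4 CPM at E16.5 and 61.5, 53.9 and 52.3 CPM at E18.5, also without overlap, at 0.46 ± 0.12 (edgeR adjusted p = 0.275). The RNA polymerase I list gave -0.14, with 5 higher and 12 lower, and none with an unadjusted p under 0.05. Its members without E16.5 replicate 2 gave -0.21. The Myc and mTOR list gave -0.02 over 24 genes, with 10 higher and 14 lower, and 1 higher and 1 lower at that p. Myc, which drives transcription of ribosome genes, had 18.3, 23.5 and 17.4 CPM at E16.5 and 30.4, 25.6 and 32.7 CPM at E18.5. The stages did not overlap in Myc, at 0.58 ± 0.17 with an edgeR adjusted p of 0.330. DESeq2 called 1 gene of the 6 lists, Rrp12, limma called 0, and edgeR without E16.5 replicate 2 called 1, Rrp1 (-0.95, adjusted p = 0.0429).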

How the data were processed

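Each library was deposited as 1 estimated count and 1 FPKM value per gene, in a table of 31529 genes. Per the labels' protocols, polyadenylated RNA was bound to oligo(dT) beads, dUTP kept the strand, and adapters carried molecular identifiers. StringTie 1.3.4d, HISAT2 2.0.4, cutadapt 1.9 and UMI-tools appear in the submitters' processing notes. The use of identifiers and strand was not given in the sources used here. Estimated counts are whole numbers per gene, per the file headers, and the authors' FPKM are scaled by length and library. Such estimates can divide reads between near-identical rows.

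The stage comparison used edgeR 4.0.16 and R 4.3.3 (filterByExpr, TMM, glmQLFTest, two-sided, stage only, Benjamini-Hochberg over 19959 genes), checked on simulated counts. Alternatives used DESeq2 1.42.0 and limma 3.58.1. SE is the size of the log2 change over the root of F. Errors after levels are SD over 3 libraries. Copies were found with BLAST 2.17.0 against GENCODE M21 transcripts (29874 rows matched by identifier). Printed gene coordinates are those of M21 (GRCm38), and the deposited ones were not used. Binomial intervals are exact (Clopper-Pearson, SciPy 1.17.1). 

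The members, lists and paralog pairs were chosen with earlier results of these data known. Named genes were Rpl26 and Gm15772, the paralogs and their parents, the P stalk, Rps6, Rpsa, Fau, Rpl5, Rpl11, Rps19 and Rack1, members called, the 5 largest changes each way at 5 FPKM or more, the 3 highest and 3 lowest FPKM, and the 3 lowest p of each list. Not all are described, and some items are not reported here. Rps3a3, Rps18, Rpsa-ps10, the Rpl21 copies and the start-site sequences were singled out after their values were seen.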

Additional observations from a re-analysis of the deposited data

How the results depend on the processing

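For single genes, 734 alternative values kept their direction and side of the threshold, 34 reversed, 7 lost a call and 4 gained one. The call of the Rpl26 row held under every alternative run except summing of copies. Against 30 genes called in all by edgeR, DESeq2 called 403, the fit with the mitochondrial share as a term 184, non-mitochondrial totals without TMM 17, and limma 10 on log2(FPKM + 1) and 18 on log2(FPKM + 0.1). Leaving out 1 library gave 8 (without E16.5 replicate 3) to 371 (without E16.5 replicate 2). Members called were 0 with copies summed, 1 to 3 with 1 library left out, and 2 with copies summed and E16.5 replicate 2 left out, an alternative added after the data were seen. The genes called in the pathway lists were 1 in DESeq2 and 0 to 1 with 1 library left out. The members' median of -0.08 became 0.0598 and 0.0580 in limma with pseudocounts 0.1 and 1, 0.114 over the 5 tested members without a copy, and 0.0617 with copies summed without E16.5 replicate 2. With 1 library left out it ran from -0.19 to 0.10. The cause of these turns was not tested.

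With copies summed, Rpl21 (-0.21), Rpl26 (-0.30), Rpl29 (-0.23), Rpl7a (-0.0441) and Rps3a1 (0.12) reversed, by the counts the sum adds. With the mitochondrial share as a term Rack1 (-0.0579) and Rps4x (-0.0710) reversed. In limma with pseudocounts 0.1 and 1, Rpl19 (0.0053 and 0.0053), Rpl3 (0.0615 and 0.0582), Rpl7 (0.0283 and 0.0269), Rplp0 (0.135 and 0.133) and Rps6 (0.0527 and 0.0523) reversed. With 1 library left out the log2 change ran from -0.16 to 0.21 for Rack1, -0.0156 to 0.19 for Rpl29, -0.22 to 0.19 for Rpl3, -0.35 to 0.17 for Rpl5, -0.43 to 0.29 for Rpl7, -0.38 to 0.46 for Rplp0, -0.18 to 0.60 for Rplp1, -0.81 to 0.23 for Rps3a1, -0.18 to 0.42 for Rps4x and -0.22 to 0.15 for Rps6. In each of these genes but Rpl29 the highest value came without E16.5 replicate 2 and the lowest without E16.5 replicate 1. The share of Rpl39l in its pair differed by -0.0776 (without E18.5 replicate 1) to 0.129 percentage points. The causes were not tested.

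The members' share of counts was 2.26% at E16.5, against 2.18% at E18.5, of all counts, and 4.46% against 4.29% of FPKM. Within 10 bases of the start, TOP letters were in 61.9% of members. Deviations of same-numbered libraries correlated at 0.102, 0.185 and -0.066, and those of differently numbered libraries at -0.262 to 0.164. Such correlations cannot decide whether the replicate numbers pair the libraries. With the replicate block 43 genes and 1 member were called, and Rplp0 gave 0.0299. Depth limits Rpl39l, which had too few counts for a test.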
